A study of Danio rerio with 10 samples.

Results

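Transcription factors that mark the mesoderm lateral to the somites were followed in sorted somite progenitors of the zebrafish gastrula. The set held 10 regulators of the intermediate, lateral, blood and vessel mesoderm, listed by symbol: *osr1*, *lhx1a*, *pax8*, *gata5*, *gata6*, *hand2*, *hhex*, *lmo2*, *tal1* and *fli1b*. They were taken from 14720 transcript records, and 9 of the 10 had a record. No accession given for *pax8*, a paired-box factor of the early kidney, matched a record, so it has no value here. Some records had no symbol, and an older *pax8* record may be among them. Of the 9 records, 5 passed the filter on low counts (*osr1*, *lhx1a*, *gata5*, *gata6* and *hand2*) and 4 did not (*hhex*, *lmo2*, *tal1* and *fli1b*).

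All embryos were of the wild-type AB strain and received a caged fluorescein-dextran tracer. The control group carried the tracer alone, and the spt_cMO group carried the tracer with a caged morpholino, a light-activated antisense oligonucleotide, against *spadetail*, the older name of the T-box gene *tbx16*. Light of 360 nm was applied through a diaphragm of 100 µm to the region of the ventral somite progenitors at 6 hours post-fertilization (hpf), which released the tracer, and in the spt_cMO group the morpholino. Fluorescein-positive cells were sorted at 9 hpf for CEL-seq, a method of counting transcripts by their 3′ ends, with 5 libraries in each group. Because the control group had no morpholino of any kind, an effect of *tbx16* loss and one of morpholino injection as such cannot be told apart. How many embryos went into a library is not stated in the sources used here.

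Mesoderm of the vertebrate trunk is patterned from the midline outward into notochord, paraxial mesoderm that forms somites, intermediate mesoderm that forms the kidney, and lateral plate mesoderm that forms heart, blood and vessels. In zebrafish, *tbx16* is known for its part in forming trunk paraxial mesoderm and is also needed for early blood. The factors followed here are known for setting up the tissues beside the paraxial mesoderm, and several of them (*gata5*, *gata6* and *hhex*) are also known from endoderm.

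Libraries held between 2036973 and 9374914 counts. Along the first principal component of the tested records, replicate 2 of spt_cMO, the shallowest library, lay at 30.79 and the other 9 libraries between -12.81 and 6.4. It also had the highest summed level of 14 epidermis and enveloping layer genes, 1234 CPM (read counts scaled to a common library size) against 657 to 934 CPM in the others. The defining markers of the paraxial mesoderm were uneven in the sorted cells. Levels of *msgn1* lay between 4633 and 6650 CPM in control and between 1382 and 2820 CPM in spt_cMO. Those of *tbx16* lay between 321.2 and 651.6 CPM over all libraries. Lower levels were found for *tcf15* (13.4 to 22.3 CPM in control, 2.12 to 8.81 CPM in spt_cMO) and *meox1* (4.68 to 21.2 and 4.56 to 11.3 CPM). The marker *tbx6* did not pass the filter on low counts and had 0 counts in spt_cMO replicates 3 and 4. The transcript targeted by the morpholino, *tbx16*, had means of 385.9 CPM ± 45.1 in control and 526.2 CPM ± 100.3 in spt_cMO (SD, n = 5 each, log2 fold change 0.45, adjusted p = 0.0897 by edgeR, and 0.0172 with the replicate block). A transcript count does not show whether the protein was lost, so it does not check the labels. The summed level of 21 paraxial mesoderm genes ran from 7101 to 9284 CPM in control and from 3225 to 4905 CPM in spt_cMO. Most of the control sum, and most of its fall, was *msgn1*, with means of 5838 CPM in control and 2029 CPM in spt_cMO. Of the 19 tested genes of this list 10 fell (*msgn1*, *tbx16l*, *tcf15*, *pcdh8*, *her1*, *her11*, *ripply2*, *foxc1a*, *foxc1b* and *dact2*), where 0.974% of all tested records were called lower. The list was chosen with earlier results of these data known, so this count is no separate support. The call of *her1* was lost without any of 8 single libraries (all but control replicate 3 and spt_cMO replicate 5, adjusted p up to 0.134), and that of *pcdh8* without spt_cMO replicate 1 (adjusted p = 0.063). The part of these genes in the results below was not tested.

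Of the 5 tested regulators, *osr1* fell in the spt_cMO cells and 4 did not pass the test in either direction. Over all 6570 tested records, 1.78% passed an adjusted p of 0.05 in either direction (quasi-likelihood fit in edgeR, Benjamini-Hochberg adjusted), 0.974% lower and 0.807% higher. A count of 1 in 5 is too small to set against these shares. With the replicate number as a block *osr1* was again the 1 member called, where 1.42% of all records were called lower and 1.34% higher. The median log2 fold change of the 5 was -0.20, beside 0.00104 over all tested records.

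The intermediate mesoderm gene *osr1* encodes a zinc-finger factor needed for the zebrafish pronephros, the embryonic kidney. Control replicates 1 to 5 held *osr1* (RefSeq record NM_001006079) at 78.4, 92.3, 98.1, 89.4 and 104.4 CPM, and spt_cMO replicates 1 to 5 at 59.1, 60.2, 70.8, 74.9 and 72.4 CPM. All 5 spt_cMO libraries lay below all 5 control libraries, and each lay below the control of its own number. The groups failed to overlap in this direction in 1.63% of all tested records, and 6.04% were lower in all 5 same-numbered pairs.

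The mean of *osr1* was 92.5 CPM ± 9.77 in control and 67.5 CPM ± 7.30 in spt_cMO (SD, n = 5 each), 0.730 of the control mean. Its log2 fold change was -0.46 (SE 0.11, adjusted p = 0.0394 in edgeR's quasi-likelihood test). Blocking on the replicate number gave -0.45 (SE 0.10, adjusted p = 0.0151). The authors' deposited table gives -0.45 with an adjusted p of 0.0106, and 1.75% of its records are called lower. The call rests on the full set of libraries. In the fit without the block it was lost when any 1 of 8 libraries was left out (control replicate 2, 3, 4 or 5 or spt_cMO replicate 1, 2, 3 or 5, adjusted p up to 0.133), while the log2 fold change stayed between -0.51 and -0.41. Among the 64 records called lower, 61 had a larger change than *osr1*, and the median log2 fold change of the 64 was -0.93. In bulk samples, fewer cells that express a gene and less RNA per cell cannot be told apart.

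The genes whose values over the 10 libraries lay closest to those of *osr1*, by the root mean square difference of log2 CPM after each gene's mean was removed, were chosen from 6569 tested records. They were a record without a symbol (NM_001045284, 0.11 log2 units), *zbtb8os* (0.13) and the tubulin gene *tuba8l2* (0.13). Of these 3, *tuba8l2* fell (499.7 CPM ± 16.3 in control, 379.7 CPM ± 36.1 in spt_cMO, SD, n = 5 each), with a log2 fold change of -0.40 (SE 0.09, adjusted p = 0.0231). The others did not pass (adjusted p = 0.46 each by edgeR). All 3 were chosen for likeness to *osr1* in these same libraries. A lower level in spt_cMO was thus favoured by the choice and is no separate support.

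The LIM-homeodomain gene *lhx1a*, known from the pronephros primordium and also from the gastrula organizer and notochord, did not pass. Its levels in control replicates 1 to 5 were 16.6, 22.2, 24.7, 13.4 and 20.8 CPM, and in spt_cMO replicates 1 to 5 they were 14.9, 31.8, 29.1, 19.6 and 16.9 CPM. The groups overlapped, and spt_cMO replicates 2 and 3 lay above every control library. The means were 19.5 CPM ± 4.49 and 22.5 CPM ± 7.57 (SD, n = 5 each), with a log2 fold change of 0.15 (SE 0.22, adjusted p = 0.918). Without spt_cMO replicate 2, 3 or control replicate 4 the log2 fold change was 0.01, 0.03 or 0.05. Without spt_cMO replicate 1 or control replicate 3 it was 0.30 or 0.24, and thinned counts gave 0.29.

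Both Gata factors of the lateral plate had lower means in spt_cMO than in control, and neither passed. In zebrafish *gata5* is required for heart and endoderm. Its control levels were 96.0, 110.03, 113.8, 142.0 and 120.02 CPM in replicates 1 to 5, and its spt_cMO levels 102.0, 151.2, 100.7, 77.0 and 80.04 CPM. The highest value of all, 151.2 CPM, was in spt_cMO replicate 2, and spt_cMO replicates 4 and 5 lay below every control library.

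The mean of *gata5* was 116.4 CPM ± 16.8 in control and 102.2 CPM ± 29.7 in spt_cMO (SD, n = 5 each), with a log2 fold change of -0.20 (SE 0.16, adjusted p = 0.822). Without spt_cMO replicate 2, the library that stood apart along the first principal component, the value became -0.36 (adjusted p = 0.222). Leaving out control replicate 4 or spt_cMO replicate 4 gave -0.11, and leaving out spt_cMO replicate 5 gave -0.12.

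The related factor *gata6*, which acts in heart and gut, was counted at 39.3, 58.96, 59.7, 46.6 and 67.4 CPM in control replicates 1 to 5 and at 42.03, 42.1, 44.6, 48.5 and 53.1 CPM in spt_cMO replicates 1 to 5. The 5 spt_cMO libraries lay inside the control range. The means were 54.4 CPM ± 11.3 and 46.1 CPM ± 4.73 (SD, n = 5 each), with a log2 fold change of -0.25 (SE 0.14, adjusted p = 0.664), which became -0.16 without control replicate 5.

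The basic helix-loop-helix (bHLH) gene *hand2*, a factor of the lateral plate, heart and fin, did not pass either. Control replicates 1 to 5 held 24.4, 36.1, 33.6, 17.9 and 43.2 CPM, and spt_cMO replicates 1 to 5 held 27.1, 38.2, 35.4, 35.7 and 50.7 CPM. Each spt_cMO library lay above the control of its own number, which 5.77% of all tested records also showed, and the groups overlapped. The means were 31.03 CPM ± 9.95 and 37.4 CPM ± 8.52 (SD, n = 5 each), with a log2 fold change of 0.23 (SE 0.22, adjusted p = 0.869). With the replicate block it was 0.30 (SE 0.14, adjusted p = 0.413). In the fit without the block it was 0.09 without control replicate 4, the lowest library, and 0.11 without spt_cMO replicate 5, against 0.39 without control replicate 5 and 0.35 without spt_cMO replicate 1.

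**Figure D1:**
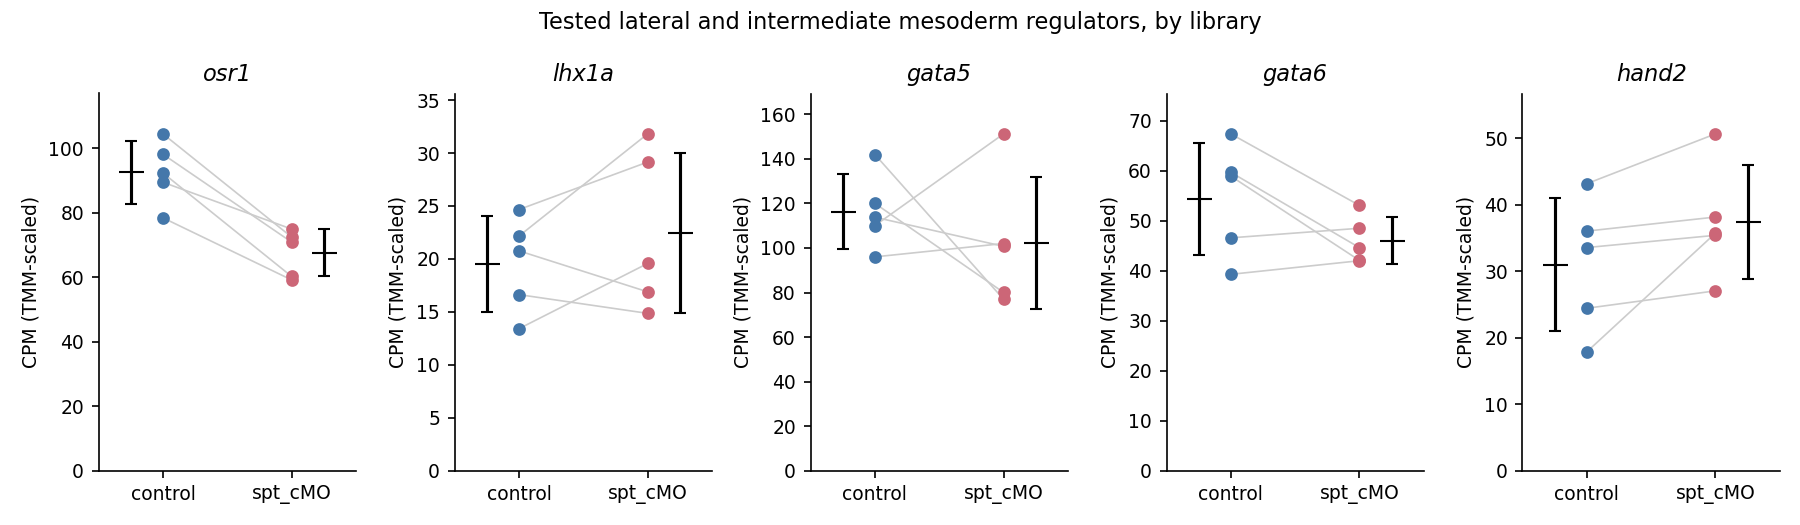
CPM of the 5 tested regulators in every library (vertical axes from 0, one panel per gene, control blue and spt_cMO red). Grey lines join libraries of the same replicate number, and black bars give the mean ± SD over 5 libraries. The 5 spt_cMO values of *osr1* lie between 59.1 and 74.9 CPM, all below the control values of 78.4 CPM and above, and the groups overlap in the other panels.

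Whether the regulators moved relative to each other was compared within each library, as the log2 ratio of 2 genes' CPM, in 2-sided exact permutation tests over the 252 assignments of the libraries. The ratios were added after seeing the data, and these assignments ignored the replicate numbers. All 10 pairs of the 5 tested genes were compared, with Benjamini-Hochberg adjustment over the 10, and 2 pairs passed. Both set *hand2* against a gene with a lower mean in spt_cMO.

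The log2 ratio of *osr1* to *hand2* was 1.68, 1.36, 1.55, 2.32 and 1.27 in control replicates 1 to 5, and 1.13, 0.66, 1.00, 1.07 and 0.51 in spt_cMO replicates 1 to 5. All 5 spt_cMO libraries lay below all 5 controls. Group means were 1.64 ± 0.42 and 0.87 ± 0.27 (SD, n = 5 each) and differed by -0.76 (adjusted p = 0.0397, exact permutation p = 0.00794, which is the smallest that 5 against 5 libraries can give).

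The log2 ratio of *gata6* to *hand2* was 0.69, 0.71, 0.83, 1.38 and 0.64 in control and 0.64, 0.14, 0.33, 0.44 and 0.07 in spt_cMO, replicates 1 to 5 in order. The groups did not overlap, but their nearest libraries, control replicate 5 at 0.642 and spt_cMO replicate 1 at 0.635, were almost level. Group means were 0.85 ± 0.31 and 0.32 ± 0.23 (SD, n = 5 each) and differed by -0.53 (adjusted p = 0.0397, exact permutation p = 0.00794). The 2 ratios share the values of *hand2* and are not independent of each other. Both had the smallest p that the permutation test can give, and each passed the adjustment only because the other was tied with it.

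The other 8 ratios did not pass. That of *osr1* to *lhx1a* differed by -0.62 (adjusted p = 0.0992, exact permutation p = 0.0397) and that of *osr1* to *gata6* by -0.24 (adjusted p = 0.0992, exact permutation p = 0.0317), both lower in 5 of 5 same-numbered pairs. The ratio of *gata5* to *gata6* had a mean of 1.11 in each group (SD 0.33 in control and 0.51 in spt_cMO). A fall particular to *osr1* among the 5 was therefore not shown. Its change differed from that of *hand2* in the unpaired permutation test, and was not distinguished from those of *gata5*, *gata6* and *lhx1a*. As 5 matched pairs, exact sign flips gave p = 0.0625 for both passing ratios, the smallest that 5 pairs allow. With any 1 library other than spt_cMO replicate 1 left out, neither ratio passed (exact permutation, adjusted p from 0.0529 to 0.0794), with the first between -0.85 and -0.59 and the second between -0.60 and -0.39. Control replicate 4, the lowest library in *hand2* and *lhx1a* and the highest control in *gata5*, held the largest ratio in both comparisons.

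**Figure D2:**
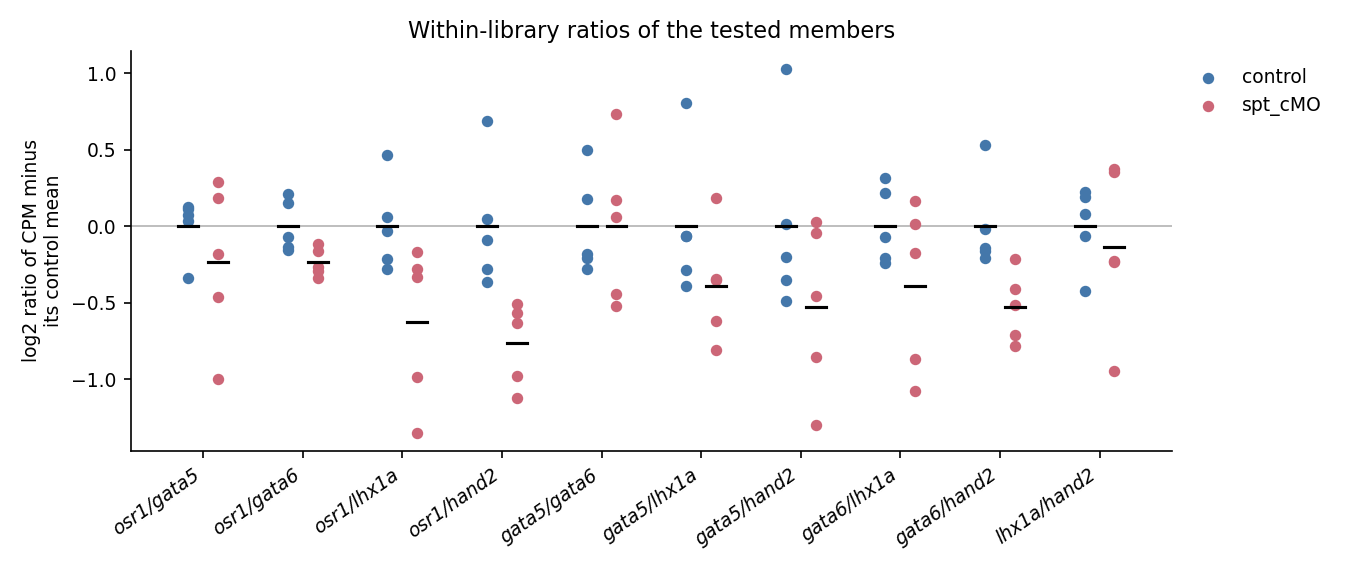
Log2 ratio of CPM for each pair of tested regulators, minus the mean of that ratio over the 5 control libraries (vertical axis), with 1 point per library and a black line at each group's mean. The 5 spt_cMO points of the ratios of *osr1* and *gata6* to *hand2* lie below all 5 control points, and the groups overlap in the other 8 ratios.

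The 4 members under the filter, known from blood and vessel formation, had low counts, and 3 of them (*tal1*, *hhex* and *fli1b*) were at or near the limit of counting. In the deepest library 3 counts made up 0.318 CPM and in the shallowest 1.47 CPM, a limit that covers counting error only. The LIM-only protein *lmo2*, a bridging partner in blood transcription complexes, had 6, 18, 4, 8 and 14 counts in control replicates 1 to 5 and 29, 5, 5, 8 and 6 in spt_cMO replicates 1 to 5. Scaled to library size these were 1.72 CPM ± 0.406 and 2.37 CPM ± 0.465 (SD, n = 5 each), and each spt_cMO library lay above the control of its own number.

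In a fit without the filter, which tested 13008 records and called 1.26% of them, *lmo2* had a log2 fold change of 0.44 (SE 0.38, adjusted p = 0.782). The bHLH factor *tal1*, an early regulator of blood, had 2, 5, 3, 3 and 3 counts in control and 6, 0, 0, 4 and 1 in spt_cMO, replicates 1 to 5 in order. Its 0 counts fell in spt_cMO replicates 2 and 3, where 3 counts would be 1.47 and 1.11 CPM. A difference in *tal1* was not detectable at this depth (log2 fold change -0.25, SE 0.74, adjusted p = 0.973 without the filter).

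The homeobox gene *hhex*, known from endothelium, liver and the yolk syncytial layer, had 1 count in all 10 libraries, in control replicate 5. The ETS factor *fli1b* of early vessels, whose record stands under the symbol *fli1rs* in the gene table, had 2 counts, 1 each in spt_cMO replicates 1 and 2. No fold is given for either. Every member with counts too low for the test is from the blood and vessel branch, with *hhex* also known from endoderm. Low counts were not particular to that branch. Of all 14720 records 6570 were tested. In the wider lists below, 4 of 13 intermediate mesoderm, 8 of 19 lateral plate and 7 of 28 blood and vessel genes with a record were tested.

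**Figure D3:**
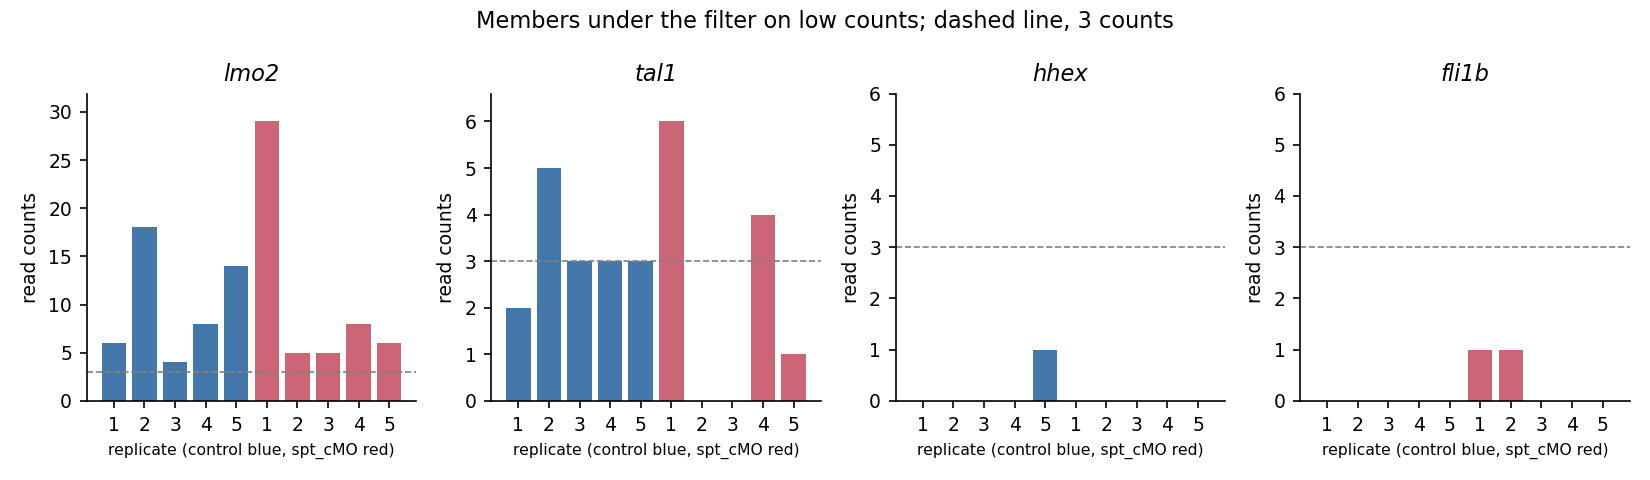
Read counts, not scaled, of the 4 regulators under the filter in each library (replicates 1 to 5 of control in blue, then of spt_cMO in red), with a dashed line at 3 counts. Counts of *lmo2* reach 29 in spt_cMO replicate 1, the deepest library, while *hhex* and *fli1b* have 1 count at most in any library.

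Other genes of the same tissues were read from lists chosen for this comparison, which include the members. Of 16 listed genes of the intermediate mesoderm and pronephros, 13 had a record, 4 were tested, 1 fell (*osr1*) and 3 did not pass. The paired-box gene *pax2a*, known from pronephros and midbrain, ranged from 8.06 to 27.4 CPM in control and from 10.4 to 30.3 CPM in spt_cMO (log2 fold change -0.11, SE 0.37, adjusted p = 0.973). The kidney gene *wt1a*, a defining marker of the later podocyte field, had 1 count in all libraries.

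Of 21 listed lateral plate and heart genes, 19 had a record, 8 were tested and none passed in either direction by edgeR, by DESeq2 or by limma voom, and 0 had an unadjusted p under 0.05. The growth factor gene *bmp4*, a ventral signal of the gastrula, was counted at 183.7 CPM ± 11.1 in control and 209.9 CPM ± 34.0 in spt_cMO (SD, n = 5 each), with a log2 fold change of 0.20 (SE 0.11, adjusted p = 0.66). The median log2 fold change of the 8 was -0.22. The heart list was not at 0 as a whole. Besides *gata5*, *gata6* and *hand2*, the cardiac homeobox gene *nkx2.7* had 152 counts in all libraries together, with means of 3.40 and 2.77 CPM, while *gata4* had 1 count and *nkx2.5* had 0.

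Of 31 listed blood and vessel genes, 28 had a record, 7 were tested and none passed in either direction by edgeR, by DESeq2 or by limma voom, with 2 (*gata2a* and *mycb*, both lower in spt_cMO) at an unadjusted p under 0.05. The gene *znfl2* had a log2 fold change of 0.07. The endothelial ETS gene *etv2* was counted at 9.38 CPM ± 4.33 in control and 8.30 CPM ± 4.42 in spt_cMO (SD, n = 5 each), and its log2 fold change was -0.28 (SE 0.42, adjusted p = 0.923). Markers of red cells and vessels were uneven. The gene *klf17*, known from early red cells, had 1320 counts in all 10 libraries together (means 25.4 and 33.7 CPM), *ets1* had 531, *sox7* 187 and *hbae3* 97, while *fli1a* had 37, *kdrl* 4 and *gata1a* 2.

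Another Gata gene, *gata2a*, known from blood, vessels and ventral ectoderm, had the lowest log2 fold change of the tested blood and vessel genes. Its control levels were 713.8, 1143, 1348, 562.5 and 737.1 CPM in replicates 1 to 5, and its spt_cMO levels 333.5, 431.6, 875.9, 534.6 and 279.5 CPM. Replicate 3 was the highest library of each group, each spt_cMO library lay below the control of its own number, and the groups overlapped. The log2 fold change was -0.88 (SE 0.36), which did not pass (adjusted p = 0.481, and 0.0944 with the replicate block). In 2 fits added after seeing the data it passed: with the block and no filter (adjusted p = 1.8e-10, with 1.28% of records called lower), and with the block and without number 4 (log2 fold change -1.13, adjusted p = 2.8e-05). Without the other numbers it did not pass (adjusted p from 0.15 to 0.336), and the authors' deposited table gives a log2 fold change of -0.92 with an adjusted p of 5.36e-06.

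**Figure D4:**
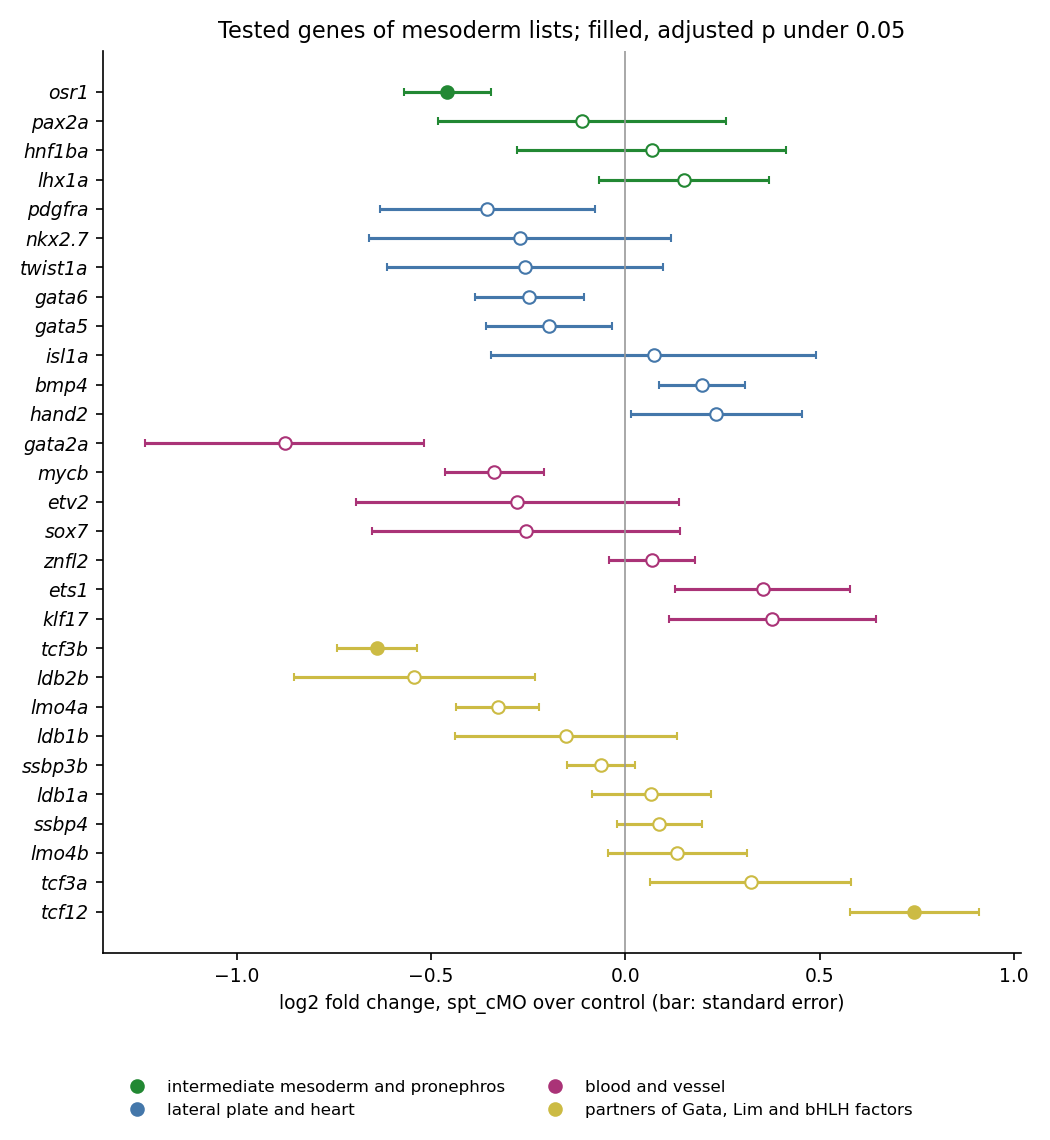
Log2 fold change of spt_cMO over control with its standard error (horizontal axis) for every tested gene of the intermediate mesoderm, lateral plate, blood and vessel, and partner lists, coloured by list. Filled points passed an adjusted p of 0.05, which *osr1*, *tcf3b* and *tcf12* did, at -0.46, -0.64 and 0.74.

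Proteins that pair with these factors were listed separately. They are Lim-domain binding proteins, single-stranded DNA binding proteins of the same complexes, Friend-of-Gata cofactors, LIM-only proteins and the bHLH E-proteins that dimerize with *tal1* and *hand2*. Of 17 listed genes 15 had a record and 10 were tested, of which 1 fell, 1 rose and 8 did not pass. Over all tested records 0.974% were called lower and 0.807% higher, and counts of 1 in 10 are too small to set against these shares. This list too was chosen with earlier results of these data known. Both that passed were E-proteins, and they changed in opposite directions.

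The E-protein gene *tcf3b* was counted at 155.2, 159.98, 198.5, 179.2 and 194.2 CPM in control replicates 1 to 5 and at 105.6, 120.9, 127.7, 113.8 and 102.2 CPM in spt_cMO replicates 1 to 5. The groups did not overlap, with spt_cMO lower, which 1.63% of all tested records showed in this direction. Means of *tcf3b* were 177.4 CPM ± 19.5 in control and 114.01 CPM ± 10.5 in spt_cMO (SD, n = 5 each). It fell by 0.64 on the log2 scale (SE 0.10, adjusted p = 0.00132) and kept its call without each single library.

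The E-protein gene *tcf12* was counted at 13.6, 22.03, 21.4, 16.4 and 18.8 CPM in control and at 25.4, 42.6, 33.6, 26.4 and 30.6 CPM in spt_cMO, replicates 1 to 5 in order. Its groups did not overlap either, which 1.43% of all tested records showed in this direction, and the means were 18.4 CPM ± 3.51 and 31.7 CPM ± 6.92 (SD, n = 5 each). It rose by 0.74 on the log2 scale (SE 0.17, adjusted p = 0.022). The call was lost without control replicate 1, 4 or 5 or spt_cMO replicate 3 (adjusted p up to 0.0656), and with the replicate block it was kept without each replicate number (adjusted p up to 0.00733).

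The third tested E-protein gene, *tcf3a*, did not pass, at 3.94 CPM ± 0.842 in control and 4.76 CPM ± 1.40 in spt_cMO (SD, n = 5 each, log2 fold change 0.32, SE 0.26, adjusted p = 0.813). Of the other partners, *ssbp3b* was level at 365.4 CPM ± 27.7 and 350.2 CPM ± 20.9 (log2 fold change -0.06, SE 0.09, adjusted p = 0.916). The LIM-only gene *lmo4a* had means of 230.3 and 183.8 CPM (log2 fold change -0.33, SE 0.11, adjusted p = 0.195). In the authors' deposited table *lmo4a* has an adjusted p of 0.0394.

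**Figure D5:**
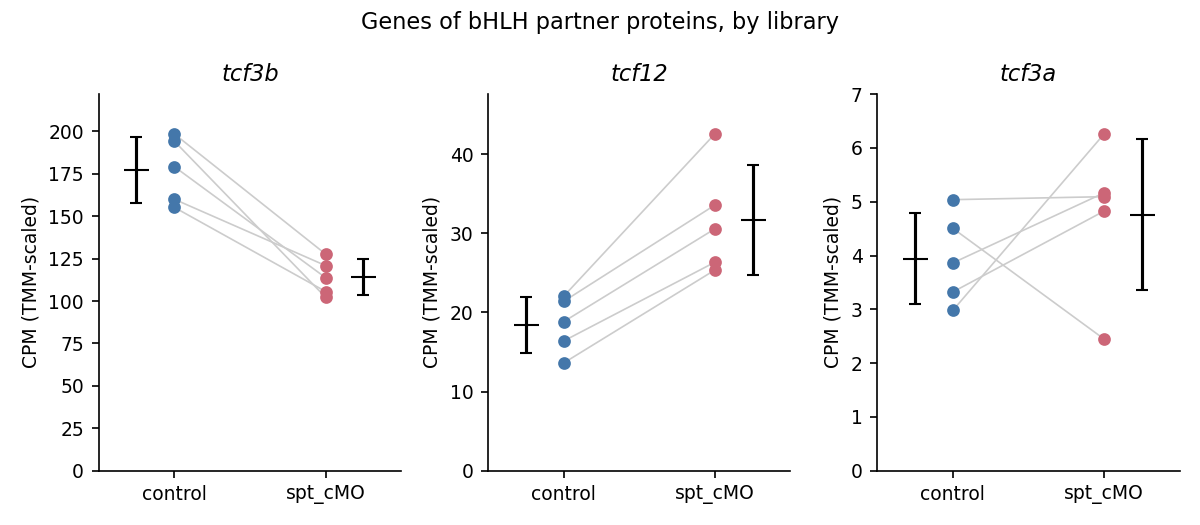
CPM of 3 E-protein genes in every library (vertical axes from 0, control blue and spt_cMO red, grey lines join the same replicate number, black bars give mean ± SD over 5 libraries). All spt_cMO values of *tcf3b* lie below the control values, at most 127.7 CPM against at least 155.2 CPM, those of *tcf12* lie above, and those of *tcf3a* overlap.

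Markers of other tissues that could lie in the uncaged region, or in the sort, were read beside these results. Of 7 tested endoderm genes none passed by edgeR, DESeq2 or limma voom, 0 at an unadjusted p under 0.05. Log2 fold changes were positive in 4 of them and negative in 3, from -0.25 (*sox32*) to 0.52 (*vgll4l*). The endoderm factor *sox32* was counted at 45.1 CPM ± 9.42 in control and 38.2 CPM ± 13.0 in spt_cMO (SD, n = 5 each). The tested gene with the highest mean, *cxcr4a*, was counted at 56.1 CPM ± 14.0 and 67.3 CPM ± 10.1 (log2 fold change 0.25, adjusted p = 0.721 by edgeR). Under the filter, *mixl1* had 70 counts in all libraries together, with means of 2.02 CPM in control and 0.628 CPM in spt_cMO. Its groups did not overlap, which 1.63% of all tested records showed in this direction, a set that leaves out *mixl1*. Its counts in spt_cMO replicates 1 to 5 were 8, 0, 3, 3 and 1. In replicate 2, 3 counts would be 1.47 CPM, and the lowest control level was 1.49 CPM, so this separation lay near the limit of counting. The difference did not pass (adjusted p = 0.2 by edgeR without the filter). The other endoderm genes under the filter had at most 21 counts, *onecut1* and *mnx1* with higher means in spt_cMO, *hnf4a* and *nkx2.1a* with lower ones. Summed over 12 genes, endoderm levels ran from 144.9 to 206.2 CPM in control and from 148.6 to 229.1 CPM in spt_cMO. Of the yolk syncytial layer markers, *mxtx1* reached at most 0.402 CPM and *mxtx2* at most 5.65 CPM in any library. In this list 2 genes were tested, neither past the threshold by the same 3 tools. The more abundant of them, *ctslb*, was uneven between libraries, from 14.0 to 116.5 CPM in control and from 16.5 to 127.7 CPM in spt_cMO. Its log2 fold change was -0.12 (SE 0.83, adjusted p = 0.99 by edgeR). The gene with an unadjusted p under 0.05 was *rbp4*, with means of 1.20 and 3.02 CPM, higher in spt_cMO in 5 of 5 pairs (log2 fold change 1.24, SE 0.52, adjusted p = 0.418 by edgeR, and 0.0423 with the block and no filter). In the authors' deposited table *rbp4* has an adjusted p of 0.0226.

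Some axial mesoderm genes differed between the groups and others did not pass. Of 7 tested notochord and axial genes *tbxta*, *shha* and *foxd3* rose and 4 did not pass, where 0.807% of all tested records were called higher. This list too was chosen with earlier results of these data known. Summed over 11 genes, it ran from 358.6 to 428.2 CPM in control and from 454.1 to 552.3 CPM in spt_cMO. Most of that sum was *tbxta*, with 309.9 to 368.5 CPM in control and 382.7 to 504.1 CPM in spt_cMO. The log2 fold changes of *noto*, *gsc*, *foxa2* and *admp*, which did not pass, were 0.47, 0.19, -0.23 and -0.22. Among the genes not tested, *chrd* had means of 1.22 CPM in control and 2.19 CPM in spt_cMO, and *foxj1a* of 0.964 and 1.41 CPM. Those of *col8a1a* were 3.56 and 1.69 CPM, and *col2a1a* had 8 counts in all libraries together. The hedgehog ligand gene *shha*, expressed in notochord and floor plate, had means of 1.81 CPM ± 1.17 in control and 6.23 CPM ± 2.04 in spt_cMO (SD, n = 5 each), and rose by 1.83 on the log2 scale (SE 0.40, adjusted p = 0.0195). The forkhead gene *foxd3* had means of 2.49 CPM ± 0.835 and 9.21 CPM ± 3.49, and rose by 1.84 (SE 0.31, adjusted p = 0.00217). The call of *shha* was lost without control replicate 4 or spt_cMO replicate 1 or 3 (adjusted p up to 0.0665), and that of *tbxta* (log2 fold change 0.38, adjusted p = 0.044) without any of 9 libraries (adjusted p up to 0.148). Of 12 tested neural ectoderm genes *sox2* rose (log2 fold change 0.83) and 11 did not pass. Over the 12, 7 log2 fold changes were positive and 5 negative. The defining markers *sox3* and *sox19a* had log2 fold changes of 0.07 and -0.002, and *zic2a* had -0.62 (adjusted p = 0.376 by edgeR). Of 13 tested epidermis and 4 tested germ cell genes none passed by edgeR, DESeq2 or limma voom, with 2 and 0 at an unadjusted p under 0.05, and the summed epidermis level ran from 657.001 to 873.2 CPM in control and from 828.2 to 1234 CPM in spt_cMO. With the block and no filter, *tfap2a* of the epidermis list rose and *ca15b* of the germ cell list fell (adjusted p = 0.0331 and 0.00395 by edgeR). The authors' deposited table gives them adjusted p of 0.0373 and 0.0262. The part of these tissues in the values of *osr1*, *lhx1a* and *hand2* was not tested.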

How the data were processed

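RNA was measured by CEL-seq in 10 libraries of sorted cells, 5 per group. The authors deposited raw read counts for each RefSeq transcript record. Their deposited comparison holds, per record, a log2 fold change, a likelihood ratio score and p-values. The design text names Zv8 as the assembly for alignment and Galaxy as the platform, and the submitters' processing notes name edgeR. Use of strand is not given in the sources used here, so overlapping or antisense genes may share counts. Versions are not given either, and no molecular identifiers are mentioned.

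For symbols, RefSeq's gene table for another assembly (GRCz12tu) was used, and 13986 of 14720 records matched. Records without a symbol took 1.4% to 1.62% of each library and stayed in the tests. No coordinates or sequences are given.

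The filter was filterByExpr with a minimum count of 10, a total of at least 15 and a proportion of 0.7, and 6570 records passed. Groups were compared in R 4.3.3 with edgeR 4.0.16 (TMM scaling, robust glmQLFit and glmQLFTest, 2-sided, Benjamini-Hochberg adjustment over all tested records, threshold 0.05), after tests on simulated data. CPM values are TMM-scaled. SE is the log2 fold change over the square root of F. No pair of libraries was identical, and replicates of a group differed beyond sampling noise (chi-square per degree of freedom at least 6.71). The labels call them biological replicates.

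Replicate numbers 1 to 5 occur in both groups. The deviations from the group mean were correlated between libraries of one number, with r of 0.135, 0.251, 0.119, 0.203 and 0.147 over 6570 records, all above 0.1, so the numbers were taken to pair the libraries. For number 1 (spt_cMO) and number 3 (control) a library of another number correlated more, at 0.196 and 0.144; the labels do not say what a number shares. Alternatives were other scalings, filters, DESeq2 1.42.0, limma 3.58.1 (voom), the replicate block, thinned counts and leaving out libraries.

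Named genes are all members and, per list, genes that passed and the 2 tested genes with the highest mean CPM, plus the 3 profiles nearest to a member that passed. Genes of other tissues are mostly given as counts. *pax2a*, *etv2*, *tcf3a*, *sox32* and other list genes not covered were named outside this rule, after their values were seen. The members and lists were chosen with earlier results of these data known. The ratios between members, the block without the filter and the block without a replicate number were added after seeing the data. Profiles were compared on log2(CPM + 0.5).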

Additional observations from a re-analysis of the deposited data

Results flagged for a closer look

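A library was listed here when its gap to the nearest library of its group exceeded 0.71 of the group's range. Of 128 groups of values examined 11 were listed, and chance lists about 1 in 20 where values are normally distributed. For *hhex* and *fli1b*, listed below, the counts were too low for that rate to apply.

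Of these, 4 concerned the libraries, a tissue list or a neural gene. Replicate 1 of spt_cMO held 9374914 counts, against at most 3807655 in the other spt_cMO libraries. Replicate 2 of spt_cMO lay at 30.79 on the first principal component (-3.38 to 6.4 in the others) and had the highest summed epidermis and enveloping layer level, 1234.15 CPM (828.2 to 933.5 in the others). In *sox2*, spt_cMO replicate 3 was lowest, at 63.5 CPM.

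Control replicate 4 stood apart in 3 ratios: it had the lowest log2 ratio of *osr1* to *gata5* among the controls (-0.67, others -0.29 to -0.20), the highest of *gata5* to *lhx1a* (3.40, others 2.21 to 2.53) and the highest of *gata6* to *hand2* (1.38, others 0.64 to 0.83). The last bears on a passing ratio, whose difference without this library was -0.39 (exact permutation, adjusted p = 0.0794).

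Among single genes, *hhex* had its only count in control replicate 5 (0.138 CPM), and *fli1b* was highest in spt_cMO replicate 2 (0.489 CPM, a single count). *her11* was highest in spt_cMO replicate 5 (5.23 CPM) and *foxc1a* in control replicate 5 (98.4 CPM), both genes of the paraxial mesoderm list.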

How the results depend on the processing

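All 5 tested regulators kept the sign of their log2 fold change in all 25 alternatives, and *gata5*, *gata6*, *lhx1a* and *hand2* passed in none (lowest adjusted p 0.222, 0.352, 0.65 and 0.338). The change of *osr1* ran from -0.51 to -0.41 and its adjusted p from 0.00282 to 0.133. It missed the threshold, leaving 0 members called, with upper quartile factors (-0.43, adjusted p = 0.0579) and with counts thinned to the smallest total (-0.46, adjusted p = 0.125). Without single libraries it ran from -0.51 to -0.41, with 0 to 1 members called. With the replicate block and both libraries of a number left out, an alternative added after seeing the data, it ran from -0.50 to -0.41 and missed the threshold without number 3 (-0.44, adjusted p = 0.0635) or 5 (-0.43, adjusted p = 0.0727), with 0 members called. The causes were not tested; thinning and leaving out libraries use fewer counts or samples.

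Over all records, 53 were called higher and 64 lower. The higher count was 83 by DESeq2 and 88 with the replicate block, 127 higher and 166 lower with the block and no filter (added after seeing the data), and 103 higher and 106 lower with the block and without number 2. Without single libraries 36 to 57 were higher and 45 to 68 lower. The block changed no call of a regulator with the filter on. The members *tal1*, *hhex* and *fli1b* are at or under 6 counts in every library, and the cause of these low counts was not tested.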
